A study of Homo sapiens with 8 samples.

Results

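Tight junctions seal the space between neighbouring epithelial cells near their apical side. Claudins and occludin span the membrane and form the sealing strands, junctional adhesion molecules stand beside them, and plaque proteins such as the zonula occludens proteins and cingulin tie the strands to the actin cytoskeleton. In the breast these junctions hold luminal cells into a closed layer around the duct. The genes described here were 10 chosen by symbol, namely the claudins CLDN1, CLDN3, CLDN4, CLDN7 and CLDN8, the occludin gene OCLN, the adhesion molecule gene F11R, and the plaque genes TJP1, TJP3 and CGN. A gene counted as measured where at least 1 probe set named it and no other gene in the platform annotation, which held for 9 of the 10 members with 18 probe sets, out of 19775 genes in all. F11R had no probe set of its own there and was not analysed here.

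Gene expression was profiled with 8 Affymetrix U133 Plus 2.0 microarrays in 4 groups of 2. The cells are human breast epithelial lines. trMCF clone 11 descends from MCF-10F cells transformed with a high dose of estradiol, is 1 colony picked by ring cloning, and formed spherical masses and no tubules in collagen. The treated groups are trMCF clone 11 grown for 26 days in 1 μM or 10 μM all trans-retinoic acid (ATRA). MCF-10F, the spontaneously immortalized normal-like line that makes tubules in collagen, is the line they are set against. All 4 groups therefore share the MCF-10F origin, and the treated groups and trMCF clone 11 share the estradiol exposure. Vehicle for the treated cells was dimethylsulphoxide, and whether the trMCF clone 11 arrays hold vehicle-treated cells is not given in the labels. The labels do not say whether both members of a replicate pair were grown as separate cultures, so the p-values measure only the spread between those arrays, which may be technical.

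Values are deposited signal intensities on a linear scale, tested as log2. A gene was read at its brightest probe set, its other probe sets served as a check, and it was called at an adjusted p under 0.05 (limma, Benjamini-Hochberg over 54613 probe sets). Array medians lay between 47.36 and 48.87. Replicate arrays were less alike in the untreated cells. A gap above 2-fold was seen for 7.71% of probe sets in trMCF clone 11, 0.126% at 1 μM, 0.211% at 10 μM and 3.48% in MCF-10F. trMCF clone 11 replicate 1 carries a normal disease state in its labels although its title names the clone. It was grouped by its title, and results that rest on it are given with and without it. Where an array was left out, the array that remained alone in its group was assumed to vary like those of the other groups. EPCAM (4805 to 7964), CDH1 (4472 to 5857) and KRT18 (6832 to 9044) were bright on every array, as epithelial markers, and KRT19 was dim at 26.5 to 72.1.

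The stretches before the start sites of 3 members are shown first, because CGN was the one member called in any comparison, CLDN1 had the widest range of group means among the members, and the CLDN7 stretch holds the densest run of the motif searched. They are the 250 bases upstream of RefSeq start sites (GRCh38.p14), 5′ to 3′ on the gene's strand, at chr1:151511137-151511386 (plus strand) for CGN, chr3:190322447-190322696 (minus strand) for CLDN1 and chr17:7262479-7262728 (minus strand) for CLDN7. Capitals mark CAGGTG, the E-box form that SNAI and ZEB repressors are known to bind, and AGGTCA, a half-site of nuclear receptors such as the retinoic acid receptors, each read on both strands.
CGN: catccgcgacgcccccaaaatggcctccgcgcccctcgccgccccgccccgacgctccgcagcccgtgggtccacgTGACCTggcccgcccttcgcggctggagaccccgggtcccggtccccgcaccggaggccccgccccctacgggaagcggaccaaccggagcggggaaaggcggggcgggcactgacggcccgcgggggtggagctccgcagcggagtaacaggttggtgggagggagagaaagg
CLDN1: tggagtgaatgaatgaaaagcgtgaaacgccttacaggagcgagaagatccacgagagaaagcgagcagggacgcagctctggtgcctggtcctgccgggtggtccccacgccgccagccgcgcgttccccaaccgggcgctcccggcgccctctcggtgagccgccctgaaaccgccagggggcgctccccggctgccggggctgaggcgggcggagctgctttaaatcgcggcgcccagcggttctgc
CLDN7: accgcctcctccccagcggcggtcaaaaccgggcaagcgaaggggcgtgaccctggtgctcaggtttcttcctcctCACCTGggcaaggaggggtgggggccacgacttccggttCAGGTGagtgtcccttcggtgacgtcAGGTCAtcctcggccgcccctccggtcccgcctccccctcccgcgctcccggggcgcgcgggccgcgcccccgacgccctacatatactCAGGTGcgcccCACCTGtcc
The CGN stretch held 1 AGGTCA motif, on the reverse strand and 174 bases before the start, and no CAGGTG. Neither motif was in the CLDN1 stretch. The CLDN7 stretch held 4 CAGGTG motifs and 1 AGGTCA motif. Over all members, 14 such stretches of 8 genes were in the RefSeq table, and 5 of the 14 held CAGGTG (CLDN7, OCLN, TJP1 and TJP3), against 17.5% of the 35114 stretches in the table. AGGTCA was likewise in 5 of 14 (CGN, CLDN4, CLDN7 and TJP1), against 12.1% of all. AGTTCA, a further half-site searched, was in 1 of 14 (TJP1), or 7.14%, against 8.80% of all. These matches describe the letters only. CLDN8 and F11R were not in the table.

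CGN encodes cingulin, the plaque protein that links the zonula occludens proteins to actomyosin. Its intensity was 251 and 240 in trMCF clone 11, 192 and 193 at 1 μM ATRA, 141 and 158 at 10 μM ATRA, and 255 and 303 in MCF-10F. All 4 ATRA arrays lay below both trMCF clone 11 arrays and both MCF-10F arrays, and both 10 μM arrays lay below both 1 μM arrays. Between any 2 groups, 3 to 6 of the 9 members had no overlap of arrays, as did 38.8% to 54.5% of all genes. Separation of 2 arrays from 2 was therefore common in these data, for the other genes below as well. At 10 μM CGN fell by 0.72 on the log2 scale against trMCF clone 11 (SE 0.15, 95% interval −1.06 to −0.38, adjusted p = 0.0356 by limma), a level of 0.608 of that in the clone. Against MCF-10F it fell by 0.90 (SE 0.15, interval −1.24 to −0.55, limma adjusted p = 0.0334). CGN was the only member called, 1 of 9 in each of these 2 comparisons, where 3.89% and 1.81% of all genes were called lower and 7.83% and 2.56% in either direction. A single member gives no share that can be read against such a background.

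The second CGN probe set was 328 and 233 in trMCF clone 11, 196 and 165 at 1 μM, 140 and 144 at 10 μM, and 240 and 265 in MCF-10F. Its order of groups differed only in that the clone mean stood above the MCF-10F mean. At 10 μM this probe set fell by 0.96 against the clone (limma adjusted p = 0.0354), and it was 0.83 lower against MCF-10F without passing the threshold (limma adjusted p = 0.1). Both CGN probe sets carry the suffix that marks a target shared by several transcripts. Without trMCF clone 11 replicate 1 the difference at the brighter probe set was −0.69 with a limma adjusted p of 0.0682. The call was also lost in a fit of only the 4 arrays compared (limma adjusted p = 0.117), and over all alternatives the adjusted p ran between 0.0179 and 0.241.

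The 1 μM dose lay between the others for CGN. The difference was −0.35 against trMCF clone 11 (interval −0.73 to 0.02, limma adjusted p = 0.296) and −0.53 against MCF-10F (interval −0.91 to −0.15, limma adjusted p = 0.298). Between the doses, 10 μM minus 1 μM gave −0.37 (interval −0.71 to −0.02, limma adjusted p = 1.0). In that comparison 0 of 9 members and 0.0% of all genes were called, with 1 member and 334 genes at an unadjusted limma p under 0.05. trMCF clone 11 and MCF-10F differed by −0.18 in CGN (interval −0.56 to 0.20).

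**Figure D1:**
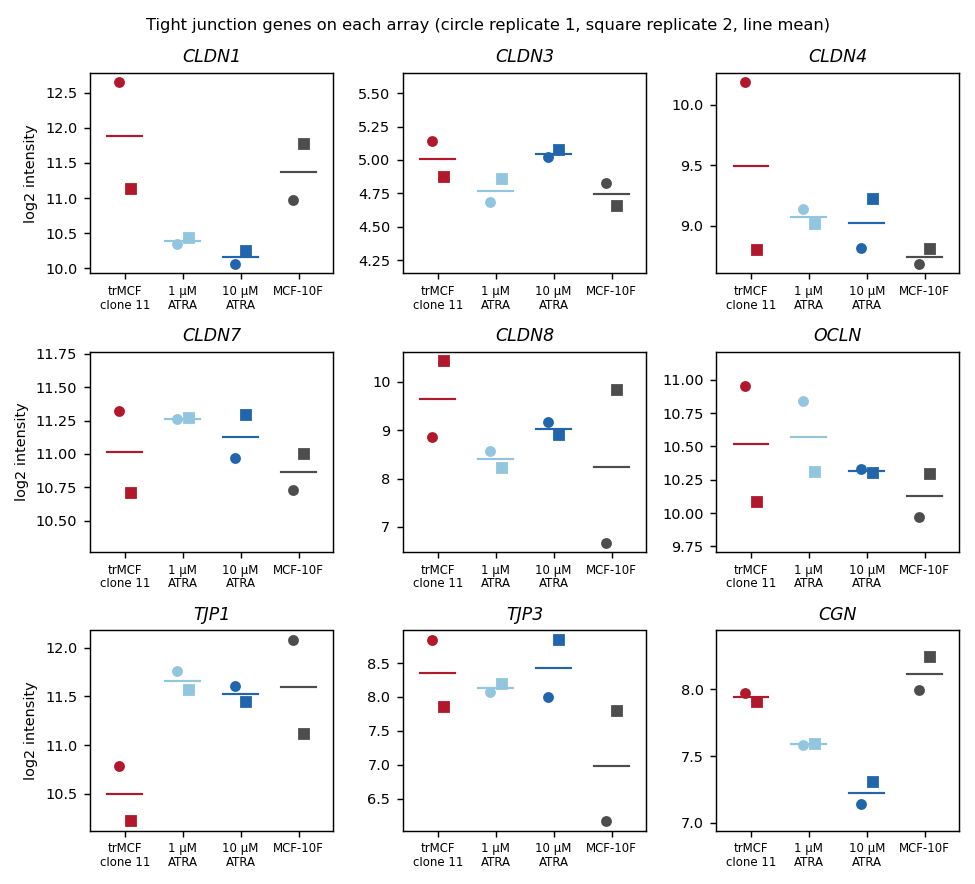
The log2 intensity of 9 tight junction genes at the brightest probe set, on each of 8 arrays, in trMCF clone 11, after 1 μM and 10 μM ATRA, and in MCF-10F. Circles are replicate 1, squares replicate 2 and lines the mean of 2 arrays, and each panel has its own axis. CGN steps down with dose, CLDN1 is low on all 4 ATRA arrays, TJP1 is low on both clone arrays, and CLDN8 differs most between the MCF-10F arrays.

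TJP1 encodes ZO-1, the scaffold that binds claudins and occludin on the inner side of the membrane. Its intensity was 1763 and 1190 in trMCF clone 11, 3472 and 3030 at 1 μM ATRA, 3110 and 2786 at 10 μM ATRA, and 4342 and 2212 in MCF-10F. Both clone arrays were below each of the other 6. The difference between clone and MCF-10F was −1.10 (SE 0.36, interval −1.98 to −0.22, unadjusted p = 0.0227, limma adjusted p = 0.166). With ATRA the difference from the clone was 1.16 at 1 μM (SE 0.36, limma adjusted p = 0.166) and 1.02 at 10 μM (SE 0.33, limma adjusted p = 0.126). None of these passed the threshold after adjustment over all probe sets. The treated cells and MCF-10F differed by 0.07 at 1 μM (interval −0.82 to 0.95) and by −0.07 at 10 μM (interval −0.85 to 0.70), intervals that hold differences of more than 1.5-fold either way.

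The second TJP1 probe set was 126 and 66.3 in the clone, 242 and 191 at 1 μM, 179 and 159 at 10 μM, and 308 and 100 in MCF-10F. There too the ATRA arrays stood above both clone arrays, but the MCF-10F arrays overlapped the clone's, with a difference of −0.94 between clone and MCF-10F (interval −2.34 to 0.45). Leaving out trMCF clone 11 replicate 1 gave 1.45 at 1 μM and 1.31 at 10 μM against the clone (limma adjusted p = 0.159 and 0.0941). The smallest adjusted p for TJP1 in these 3 comparisons, over all alternatives, was 0.0548. With each array left out in turn, the difference between clone and MCF-10F ran from −1.58 to −0.61.

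TJP3 encodes ZO-3, a related scaffold found mainly in epithelia. Its intensity was 460 and 231 in trMCF clone 11, 269 and 293 at 1 μM ATRA, 257 and 460 at 10 μM ATRA, and 71.6 and 222 in MCF-10F. Both MCF-10F arrays were below the other 6, narrowly so for MCF-10F replicate 2. The difference was 1.37 between clone and MCF-10F (SE 0.57, limma adjusted p = 0.263) and 1.45 between 10 μM ATRA and MCF-10F (SE 0.57, limma adjusted p = 0.317). A second probe set gave 1.47 and 1.42 for the same comparisons, likewise not called. The MCF-10F arrays were 3.11-fold apart at the brighter probe set. The clone difference was 0.55 without MCF-10F replicate 1 and 2.19 without MCF-10F replicate 2, and the 10 μM difference 0.63 and 2.26. Without clone replicate 1, which held the highest TJP3 value, the clone difference was 0.88.

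CLDN1 encodes claudin-1, a barrier-forming claudin. Its intensity was 6421 and 2234 in trMCF clone 11, 1298 and 1381 at 1 μM ATRA, 1067 and 1218 at 10 μM ATRA, and 2008 and 3481 in MCF-10F. Every ATRA array was below every untreated array of either line, a pattern whose share over all genes was not counted. The difference from the clone was −1.50 at 1 μM (SE 0.52, limma adjusted p = 0.204) and −1.73 at 10 μM (SE 0.47, limma adjusted p = 0.0822), and from MCF-10F −0.98 (limma adjusted p = 0.636) and −1.21 (limma adjusted p = 0.314). None passed the threshold. The second CLDN1 probe set gave 1814 and 302 in the clone, 146 and 125 at 1 μM, 91.6 and 110 at 10 μM, and 255 and 321 in MCF-10F, the same separation of ATRA arrays from the rest, with −2.88 at 10 μM against the clone (limma adjusted p = 0.0604).

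The size of the CLDN1 difference from the clone turned on the clone arrays, which were 2.87-fold apart at the brighter probe set and 6.01-fold apart at the other. Without trMCF clone 11 replicate 1 the difference was −0.74 at 1 μM and −0.97 at 10 μM. Without trMCF clone 11 replicate 2 it was −2.26 and −2.49. Each of these fits held a lone clone array whose spread was taken from the other groups, so no call of CLDN1 is drawn from them. Between clone and MCF-10F the CLDN1 arrays overlapped, with a difference of 0.52 (interval −0.75 to 1.79) that turned to −0.24 without clone replicate 1.

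CLDN4 encodes claudin-4, a sealing claudin and, with claudin-3, a receptor of Clostridium perfringens enterotoxin. Its intensity was 1165 and 445 in trMCF clone 11, 565 and 516 at 1 μM ATRA, 451 and 597 at 10 μM ATRA, and 411 and 448 in MCF-10F. Clone replicate 1 stood apart from the other 7 arrays, and clone replicate 2 lay inside the MCF-10F pair. The differences were 0.74 between clone and MCF-10F (SE 0.43), −0.41 at 1 μM (SE 0.43) and −0.47 at 10 μM (SE 0.40) against the clone, with limma adjusted p of 0.413 to 0.664. Without clone replicate 1 they were 0.05, 0.28 and 0.22. Without clone replicate 2 they were 1.44, −1.11 and −1.17. Clone replicate 1 was then the lone clone array, with its spread taken from the other groups. Calls over all genes rose widely in that fit too, so no call of CLDN4 is drawn from it. A second, dimmer CLDN4 probe set gave 0.19, −0.35 and 0.09 for the same 3 comparisons with all arrays, none called. Its clone arrays were 1.37-fold apart.

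CLDN8 encodes claudin-8, best known from the tight distal segments of the kidney tubule. Its intensity was 462 and 1378 in trMCF clone 11, 382 and 299 at 1 μM ATRA, 574 and 477 at 10 μM ATRA, and 102 and 903 in MCF-10F. The MCF-10F arrays were 8.85-fold apart and the clone arrays 2.98-fold apart, so the groups overlapped wherever MCF-10F was compared. The clone differed from MCF-10F by 1.39 with an SE of 1.04 (interval −1.15 to 3.94). Without MCF-10F replicate 1 it differed by −0.18, and without clone replicate 1 by 2.18. No other member had a larger SE.

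CLDN7, a claudin also found along the lateral membrane, measured 2564 and 1670 in trMCF clone 11, 2455 and 2465 at 1 μM ATRA, 2004 and 2507 at 10 μM ATRA, and 1696 and 2044 in MCF-10F. OCLN, the gene of occludin, measured 1979 and 1087 in the clone, 1832 and 1268 at 1 μM, 1287 and 1262 at 10 μM, and 1001 and 1256 in MCF-10F. Clone replicate 1 held the highest value of both genes and, for CLDN7, clone replicate 2 held the lowest. Over the 6 comparisons the CLDN7 differences lay between −0.13 and 0.40 and the OCLN differences, at the brightest probe set, between −0.26 and 0.44, none called. At these probe sets the intervals reached no further than −0.68 to 0.99 for CLDN7 and −0.98 to 1.27 for OCLN. For CLDN7 a change of more than 2-fold therefore lay outside the interval of every comparison. For OCLN the difference between clone and MCF-10F was 0.39, and without clone replicate 1 it was −0.05. The dimmer OCLN probe sets gave 0.25, 0.40 and −0.33 for that comparison, and −0.28, −0.73 and 0.08 at 10 μM against the clone, none called. The interval of the −0.73 ran from −1.95 to 0.50. In the clone the arrays were 2.78-fold, 3.6-fold and 1.21-fold apart at these probe sets. CLDN3, the gene of claudin-3, was listed at 25.2 to 35.4 on all 8 arrays, below every array's median intensity. Its differences, between −0.24 and 0.31, were not called, and detection calls were not used here.

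**Figure D2:**
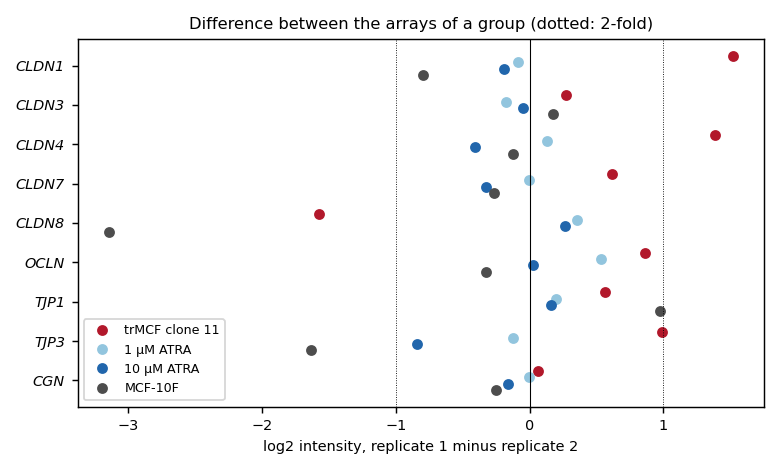
The log2 intensity of replicate 1 minus that of replicate 2 for 9 tight junction genes, 1 point per group (trMCF clone 11, 1 μM ATRA, 10 μM ATRA, MCF-10F), with dotted lines at a 2-fold gap. CLDN1, CLDN4 and CLDN8 pass the dotted lines in trMCF clone 11, CLDN8 and TJP3 pass them in MCF-10F, and no ATRA point does.

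The gap between replicate arrays varied by group for these genes. In trMCF clone 11, 3 of 9 members were more than 2-fold apart (7.33% of all genes), and in MCF-10F 2 of 9 were (3.84% of all genes). At 1 μM and at 10 μM none of the 9 was, nor were more than 0.091% and 0.142% of all genes. The median gap of the members was 0.86 in the clone, 0.13 at 1 μM, 0.19 at 10 μM and 0.33 in MCF-10F on the log2 scale, against 0.30, 0.11, 0.13 and 0.20 for all genes. Clone replicate 1 held the highest of 8 values for CLDN1, CLDN3, CLDN4, CLDN7, OCLN and TJP3, 6 of 9 members, whereas 32.1% of all genes were highest there. CLDN8 ran the other way, with its highest value on clone replicate 2. CLDN3 and CLDN4 lie next to each other on chromosome 7, with no protein-coding gene between them in RefSeq. CLDN4 had the gap at its brighter probe set, and CLDN3, at 25.2 to 35.4, was too dim to be compared with it.

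**Figure D3:**
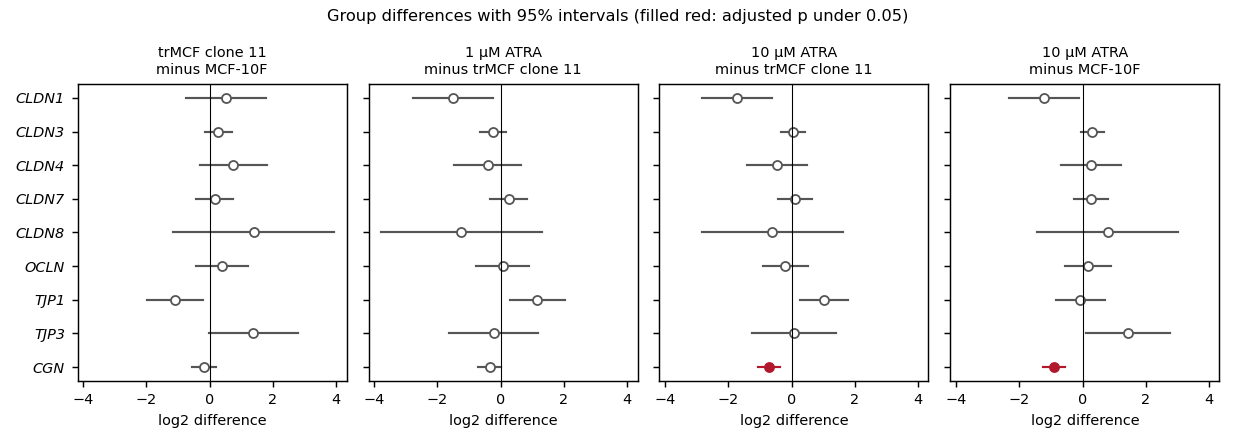
The log2 difference of 9 tight junction genes between group means, with 95% intervals, for trMCF clone 11 minus MCF-10F, 1 μM ATRA minus trMCF clone 11, 10 μM ATRA minus trMCF clone 11 and 10 μM ATRA minus MCF-10F. Filled red points passed an adjusted p of 0.05, which only CGN did, at −0.72 and −0.90, while CLDN8 has the widest intervals.

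As a group the 9 members did not move one way. Between clone and MCF-10F 0 of 9 were called (4.53% of all genes), with 7 of 9 differences above 0 and a median of 0.39, against 0.06 for all genes. After 1 μM ATRA 0 of 9 were called against the clone (1.90% of all genes), with 3 of 9 above 0 and a median of −0.24, against −0.06 for all genes. Against MCF-10F the 1 μM cells had 0 of 9 called (0.612% of all genes) and a median of 0.16. At 10 μM the medians were −0.20 against the clone and 0.27 against MCF-10F, against −0.01 and 0.05 for all genes. An unadjusted limma p under 0.05 was reached by 1 of the 9 members for clone against MCF-10F (22.9% of all genes). At 1 μM it was reached by 2 against the clone (21.6% of all genes) and 1 against MCF-10F (12.5%). At 10 μM it was reached by 3 against the clone (24.0% of all genes) and 3 against MCF-10F (16.5%). The comparisons share the clone or MCF-10F arrays, so their medians are not separate evidence.

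With the rule of the study's methods, a fold of at least 2 with an unadjusted p under 0.05, other members were picked out. TJP1 passed between clone and MCF-10F (1 of 9, 9.20% of all genes). TJP1, higher, and CLDN1, lower, passed after ATRA against the clone, at 1 μM (7.89% of all genes) and at 10 μM (8.33% of all genes). CLDN1, lower, and TJP3, higher, passed at 10 μM against MCF-10F (4.51% of all genes). CGN passed in none of them, because its differences were under 2-fold.

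Other cell types were looked for by their markers, since the arrays hold bulk RNA, in which fewer cells of a type and less RNA per cell cannot be told apart. The summed intensity of 7 measured fibroblast markers was 510 to 715 in trMCF clone 11, 340 to 346 at 1 μM, 360 to 370 at 10 μM, and 1069 to 1815 in MCF-10F. All 3 measured leukocyte markers had group means under 100 in every group, with a sum of 84 to 130. Of 5 endothelial markers 4 had group means under 100, and the sum, mostly PECAM1, was 284 to 402 in trMCF clone 11, 729 to 911 at 1 μM, 975 to 1340 at 10 μM, and 239 to 1207 in MCF-10F. It was higher on all 4 ATRA arrays than on both clone arrays. PECAM1 measured 132 and 267 in the clone, 597 and 766 at 1 μM, 821 and 1183 at 10 μM, and 106 and 1063 in MCF-10F. Of 6 basal epithelial markers 3 were measured (KRT5, KRT14 and ITGB4), and their sum was 12316 to 12825 in trMCF clone 11, 5246 to 5644 at 1 μM, 3489 to 3840 at 10 μM, and 6671 to 25412 in MCF-10F. The basal keratin KRT14 measured 3230 and 4549 in the clone, 212 and 116 at 1 μM, 42.3 and 34.0 at 10 μM, and 9150 and 1330 in MCF-10F. The basal sum, KRT5 and KRT14, like CLDN1 and CGN, were lower on all 4 ATRA arrays than on the 4 untreated ones. ITGB4 was not, and its lowest group was MCF-10F. It measured 3049 and 934 in the clone, 1043 and 918 at 1 μM, 786 and 960 at 10 μM, and 929 and 457 in MCF-10F. The part of the basal and endothelial markers in the members' values was not tested.

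Among 15 further claudins measured of 19 listed, CLDN23 was the only one called. Its intensity was 20.6 and 16.5 in trMCF clone 11, 61.1 and 54.5 at 1 μM ATRA, 53.3 and 54.6 at 10 μM ATRA, and 45.9 and 35.2 in MCF-10F. The clone arrays were below the other 6, all near or below the array median. CLDN23 fell by 1.12 in the clone against MCF-10F (SE 0.20, limma adjusted p = 0.0474), and rose by 1.65 at 1 μM (SE 0.20, limma adjusted p = 0.0326) and by 1.55 at 10 μM (SE 0.18, limma adjusted p = 0.00833) against the clone. The study lists CLDN23 among genes it chose on these arrays, so this is not independent evidence. Without clone replicate 1 the fall was 1.28 on the log2 scale with a limma adjusted p of 0.0573, and the ATRA differences were 1.81 and 1.71 (limma adjusted p = 0.047 and 0.0101). Its 2 dimmer probe sets gave 0.31 and −0.43 for clone minus MCF-10F, neither called, and over the mean of all its probe sets that difference was −0.42 (limma adjusted p = 0.179), with 0.87 and 0.80 at 1 μM and 10 μM against the clone, both still called. The clone call was kept in 7 of 13 alternatives.

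Of 18 other membrane and plaque genes measured of 21 listed, 2 were called. MARVELD2 encodes tricellulin, which seals the corners where 3 cells meet. It measured 709 and 692 in trMCF clone 11, 1347 and 1319 at 1 μM ATRA, 1204 and 1278 at 10 μM ATRA, and 994 and 1029 in MCF-10F, without overlap between any of the clone, MCF-10F and ATRA arrays. Against the clone MARVELD2 rose by 0.93 at 1 μM (SE 0.14, limma adjusted p = 0.0446) and by 0.82 at 10 μM (SE 0.12, limma adjusted p = 0.0155). These were 0.95 and 0.84 without clone replicate 1 (limma adjusted p = 0.0613 and 0.0238). The 1 μM call was also lost with only the 4 arrays compared, quantile normalization, trend and robust priors, or the replicate number as a block. There the limma adjusted p was 0.062, 0.0514, 0.0661 and 0.0759. With only the 4 arrays compared the 10 μM call was lost too (limma adjusted p = 0.0831). The clone minus MCF-10F difference, −0.53, did not pass (limma adjusted p = 0.0993). A second, dimmer probe set gave 0.94 at both doses against the clone, not called (limma adjusted p = 0.112 and 0.0592). Its clone and MCF-10F arrays overlapped.

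CXADR, the coxsackievirus and adenovirus receptor and a tight junction adhesion protein, had the largest differences of the listed genes that were called. It measured 285 and 167 in trMCF clone 11, 56.0 and 59.1 at 1 μM ATRA, 49.2 and 58.3 at 10 μM ATRA, and 416 and 825 in MCF-10F. The ATRA arrays were all below the clone arrays, and the clone arrays below the MCF-10F arrays. Against MCF-10F CXADR fell by 3.35 at 1 μM (SE 0.39, limma adjusted p = 0.0426) and by 3.45 at 10 μM (SE 0.36, limma adjusted p = 0.00695). Against the clone the difference was −1.92 at 1 μM and did not pass (limma adjusted p = 0.076), and it fell by 2.03 at 10 μM (SE 0.36, limma adjusted p = 0.0236). The 10 μM value was −1.64 without clone replicate 1 (limma adjusted p = 0.0538). A second CXADR probe set gave −2.01 and −4.03 at 10 μM against the clone and MCF-10F, both called, and its 2 dimmest probe sets gave no call. The 1 μM call against MCF-10F was kept in 6 of 13 alternatives, and lost without MCF-10F replicate 2 (−2.86, limma adjusted p = 0.0787) and with the replicate block (limma adjusted p = 0.0774). Over the mean of all its probe sets CXADR gave −1.31 at 10 μM against the clone (limma adjusted p = 0.0617). The 1 μM values came from a fit without the 10 μM arrays. With them added, the genes called at 1 μM against the clone rose from 375 to 1437, where 10 μM had 1549. A call at 10 μM and not at 1 μM was therefore not read as a difference between doses, here or below.

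**Figure D4:**
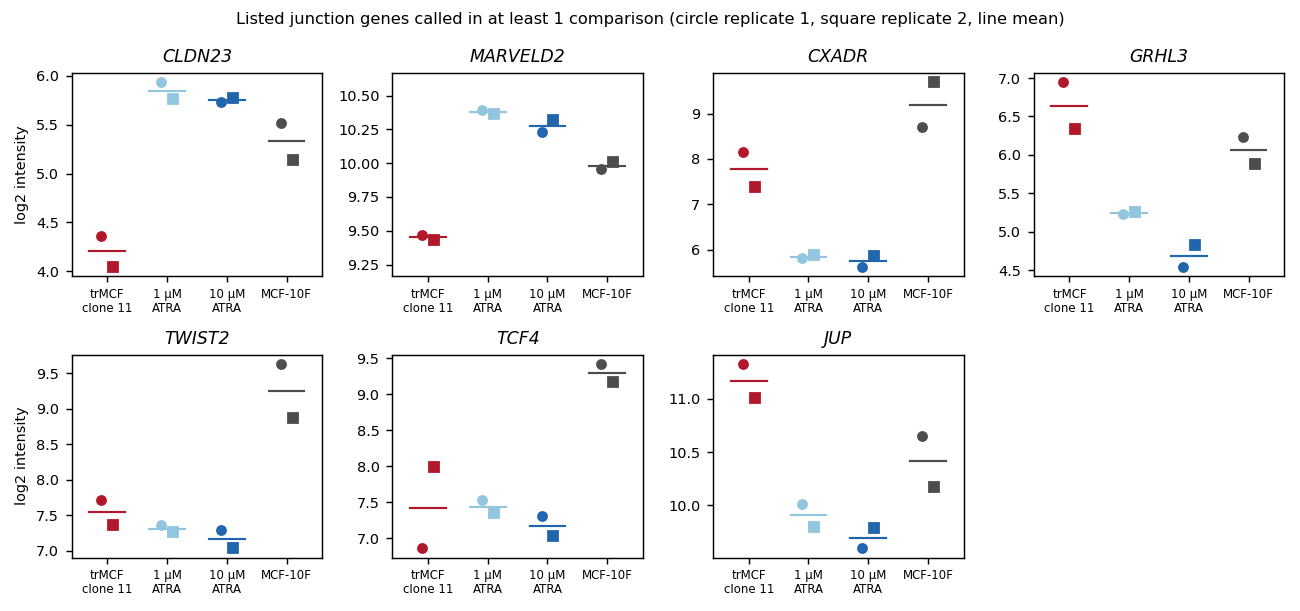
The log2 intensity of the 7 listed junction genes called in at least 1 comparison, on each of 8 arrays, in trMCF clone 11, after 1 μM and 10 μM ATRA, and in MCF-10F. Circles are replicate 1, squares replicate 2 and lines the mean of 2 arrays. CLDN23 and MARVELD2 are lowest in the clone, CXADR, GRHL3 and JUP are lowest with ATRA, and TWIST2 and TCF4 are high only in MCF-10F.

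The polarity complexes, which place the junction along the side of the cell, had 0 of 15 genes called in all 6 comparisons, with list medians between −0.04 and 0.18. Of 14 measured regulators of epithelial junctions 1 was called. GRHL3, a grainyhead-like transcription factor of barrier epithelia, measured 123 and 81.0 in trMCF clone 11, 37.6 and 38.3 at 1 μM ATRA, 23.3 and 28.5 at 10 μM ATRA, and 75.0 and 59.2 in MCF-10F. It fell by 1.96 at 10 μM against the clone (SE 0.23, limma adjusted p = 0.00836) and by 1.37 against MCF-10F (SE 0.23, limma adjusted p = 0.0392). Without clone replicate 1 the difference from the clone was −1.65 (limma adjusted p = 0.0117). The call against MCF-10F was kept in 5 of 12 alternatives and lost with the replicate block (limma adjusted p = 0.0506). At 1 μM, in a fit without the 10 μM arrays, GRHL3 differed by −1.4 from the clone and by −0.81 from MCF-10F. Neither passed (limma adjusted p = 0.057 and 0.314).

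Of 14 adherens junction genes measured, JUP, the gene of plakoglobin, was called at 10 μM. It measured 2570 and 2063 in trMCF clone 11, 1037 and 893 at 1 μM ATRA, 775 and 887 at 10 μM ATRA, and 1604 and 1158 in MCF-10F. At 1 μM JUP differed from the clone by −1.26, in a fit without the 10 μM arrays. This did not pass (SE 0.22, limma adjusted p = 0.058). JUP fell by 1.47 at 10 μM against the clone (SE 0.21, limma adjusted p = 0.0129), and without clone replicate 1 by 1.32 (limma adjusted p = 0.0273).

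Repressors of epithelial genes in epithelial-mesenchymal transition were measured for 9 of 9 listed genes. TWIST2 measured 210 and 165 in trMCF clone 11, 164 and 153 at 1 μM ATRA, 157 and 131 at 10 μM ATRA, and 795 and 470 in MCF-10F. TWIST2 fell by 1.71 in the clone against MCF-10F (SE 0.28, limma adjusted p = 0.0384) and by 2.09 at 10 μM against MCF-10F (SE 0.26, limma adjusted p = 0.0139). At 1 μM its difference from MCF-10F was −1.95 and did not pass (limma adjusted p = 0.0706). The clone difference was −1.89 without clone replicate 1 (limma adjusted p = 0.0595), −1.33 without MCF-10F replicate 1 (0.113) and −1.21 over the mean of its probe sets (0.0829), so the call was lost in each. The 10 μM difference was −1.15 over the mean of its probe sets (limma adjusted p = 0.0846). TCF4, an E-protein, measured 116 and 254 in the clone, 184 and 163 at 1 μM, 159 and 131 at 10 μM, and 686 and 575 in MCF-10F. It was 2.12 lower at 10 μM than in MCF-10F (SE 0.34, limma adjusted p = 0.0325), but the 10 μM and clone arrays overlapped. The clone itself differed from MCF-10F by −1.87 (limma adjusted p = 0.0562), and the 1 μM cells by −1.86 (limma adjusted p = 0.152). For clone against MCF-10F some dimmer TCF4 probe sets were called (limma adjusted p = 0.0285 to 0.0491) and others were not. The 10 μM call was kept in 6 of 12 alternatives. It was lost without either MCF-10F array (limma adjusted p = 0.105 and 0.0732) and with the replicate block (limma adjusted p = 0.0506). The list's median difference from MCF-10F was −0.5 in the clone, −0.73 at 1 μM and −1.20 at 10 μM. For all genes these medians were 0.06, 0.0 and 0.05. Against the clone the list's median was −0.04 at 1 μM and −0.24 at 10 μM, with −0.06 and −0.01 for all genes. At 10 μM against MCF-10F 2 of 9 were called (2.56% of all genes). The MCF-10F arrays, where both genes stood high, were also those with the highest fibroblast marker sum, and the part of that in these values was not tested. Among the listed genes, all 12 calls in a comparison of an ATRA dose with the clone or MCF-10F were lost when either array of that dose was left out. Most calls over all genes were lost there too, as 1 array gives its group no spread of its own. The loss therefore does not set these genes apart.

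CLDN1 had the widest range of group means among the members, 1.73 on the log2 scale, and the genes most like it over the arrays were sought among 3091 genes whose group means ranged by more than 1. They were MCL1 (Pearson r = 0.981 over 8 arrays), WFDC21P (0.98), TRIM13 (0.978), SIAE (0.968) and IFITM2 (0.968). MCL1, a survival gene of the BCL2 family, measured 6470 and 3861 in trMCF clone 11, 2328 and 2192 at 1 μM ATRA, 1922 and 1993 at 10 μM ATRA, and 3320 and 4349 in MCF-10F. Without clone replicate 1, which held the highest value of CLDN1 and of all 5 genes, r was 0.919 to 0.97 over the other 7 arrays. The arrays fall into 4 groups, so these values describe a shared pattern of groups and arrays.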

How the data were processed

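RNA of 8 samples was hybridised to Affymetrix U133 Plus 2.0 arrays. The authors summarised and normalized the probe signals before deposit, and the deposited values are intensities on a linear scale, 1 per probe set. MAS 5.0 (global scaling) and GeneSpring's Iterative Plier both appear in the study's methods. The algorithm behind the table is not stated there or in the labels. Signals near the floor of either method hold little information on direction.

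After 62 control probe sets were left out, log2 intensities of 54613 probe sets were fitted with limma 3.58.1 (R 4.3.3, lmFit and eBayes, no covariates). Comparisons among trMCF clone 11, 1 μM ATRA and MCF-10F used those 6 arrays, as in the study, and comparisons with 10 μM ATRA used all 8. P-values were adjusted by Benjamini-Hochberg over all probe sets. Of the probe sets, 41091 named 1 gene, 1801 several and 11721 none, and only the first kind was used for genes. The number of arrays, 2 per group, limits the precision. The script was tested on simulated data with known differences.

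The text names all members, any listed junction gene called in at least 1 comparison (at most 6 a list), and the 5 genes most like the member of widest range. Members and lists were chosen with earlier results of these data known. Samples were grouped by title. Alternatives were the arrays in the fit, a filter on the dimmest 33.3%, quantile normalization, trend and robust priors, a replicate block, a floor of 16, other choices of probe set, the methods' fold rule, and leaving out each array. Promoter stretches came from RefSeq.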

Additional observations from a re-analysis of the deposited data

How the results depend on the processing

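With 2 arrays per group, no alternative can show more than whether a value depends on 1 array or 1 setting. Of 54 member values (9 genes in 6 comparisons), 24 changed sign under at least 1 alternative, 20 of them only when an array was left out, and none of the 24 was a called value. The 4 that changed sign otherwise did so under the mean over probe sets. Dim genes such as CLDN3 are limited by signal near background.

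The count of members called at 10 μM ATRA, 1 (CGN) against trMCF clone 11 and 1 against MCF-10F, was 0 in each with only the 4 arrays compared, with trend and robust priors, with a floor of 16, and without shared-target probe sets, where 7 members had a value and CGN had none. By a fold of 2 with an unadjusted limma p under 0.05 that count was 2 and 2. The same rule gave 1 for clone against MCF-10F and 2 for 1 μM against the clone, where the adjusted rule called 0. Counts of members from fits without 1 array are not compared, because the calls over all genes moved widely there as well. They were few or none without an ATRA array and, in comparisons with the clone, most without clone replicate 2. CGN was not called at 10 μM against the clone without clone replicate 1 or without either 10 μM array, nor against MCF-10F without either 10 μM array or MCF-10F replicate 2. Without a 10 μM array most calls over all genes were lost too, so that loss does not set CGN apart. With an array left out, the CGN difference at 10 μM ran from −0.8 to −0.63 against the clone and from −1.02 to −0.77 against MCF-10F.

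Among the differences at the brightest probe set given singly in the report, 7 changed sign when an array was left out. For clone against MCF-10F, CLDN1 ran from −0.24 to 1.28, OCLN from −0.05 to 0.82 and CLDN8 from −0.18 to 2.97. For CLDN4 the difference from the clone ran from −1.11 to 0.28 at 1 μM and from −1.17 to 0.22 at 10 μM. For TJP1 the difference from MCF-10F ran from −0.42 to 0.55 at 1 μM and from −0.56 to 0.41 at 10 μM.

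Replicate numbers are shared between groups, but the deviations of same-numbered arrays correlated by −0.06 to 0.35, over 0.1 in 3 of 6 pairs of groups, so the numbers were not taken to pair the arrays. With the replicate block the count of members called was 1 at 10 μM against the clone and 1 against MCF-10F (CGN in both), and 0 in the other 4 comparisons, the same as without it. Over all genes the block gave 471 calls for clone against MCF-10F (895 without it), 191 for 1 μM against the clone (375), 74 for 1 μM against MCF-10F (121), 1404 for 10 μM against the clone (1549) and 482 for 10 μM against MCF-10F (507). Of the calls of listed genes it ended those of MARVELD2 at 1 μM against the clone and of CXADR at 1 μM, GRHL3 at 10 μM and TCF4 at 10 μM against MCF-10F.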
